A study of Mus musculus with 2 samples.

Results

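The Trim genes, which encode the tripartite motif (TRIM) proteins, were compared between the CD8+ and CD8- conventional dendritic cells (DCs) of mouse spleen. Members were all genes with a probe set of their own whose symbol is Trim followed directly by a digit. There were 58 of them among the 18194 genes with such a probe set, covered by 111 probe sets, and each gene is given by its brightest probe set (mean of the 2 arrays). Both populations came from C57BL/6 mice that carried B16 melanoma cells producing Flt3 ligand, a cytokine that expands DCs. Both were taken 10 to 12 days after the cells were injected into the back. Both were enriched magnetically and sorted as CD3-B220-CD11c+ cells, the CD8+ DCs with and the CD8- DCs without CD8α, and both were labelled unstimulated. The age of the mice, and whether RNA of several mice was pooled, are not given in the labels. Since all the DCs had been exposed to Flt3 ligand and to a tumour, neither group stands for DCs of an untreated spleen.

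Each population was measured on 1 Affymetrix array, so no value has a replicate, no test was made, and a difference cannot be told apart from variation between mice, sorts or hybridisations. Differences are log2 signal of CD8+ minus CD8- DCs, and a gene was counted as different at 2-fold. A gene is called measured here if at least 1 of its values was 3.85 or more, a floor set at the table's median log2 signal. Cd8a, the gene of the sorted marker, had a log2 signal of 11.29 on the CD8+ and 5.15 on the CD8- array. The other 3 measured sort markers were lower in CD8+ DCs, by less than 2-fold. They were Itgax, the gene of CD11c (9.80 and 10.69), Ptprc, the gene of B220 (11.69 and 12.42), and Cd3e (4.76 and 4.90). The markers of the gate that both populations shared were thus not level. Of 8 markers of CD8+ DCs on the array, 7 favoured CD8+ DCs by 2-fold or more, as 8 of 8 markers of CD8- DCs favoured CD8- DCs. Markers of other cells were unequal in part. Of 6 macrophage and monocyte markers on the array 4 were measured, and Adgre1 (4.63 and 8.22 in CD8+ and CD8- DCs), Ccr2 (6.03 and 9.32) and C1qa (2.84 and 5.30) were higher in CD8- DCs and Vcam1 (5.52 and 4.66) in CD8+ DCs, with a summed linear signal over the list of 159.7 and 1028.1. Of 5 B cell markers on the array 2 were measured, and Cd79b was at 3.28 and 6.59 and Ms4a1 at 5.74 and 4.99, while Cd79a, Pax5 and Ebf1 did not reach 3.85 (summed linear signal 95.2 and 158.3). No neutrophil or NK cell marker on the array was measured. Of 7 plasmacytoid DC markers, Ccr9 (8.03 and 5.94) was at least 2-fold higher and Tcf4 (5.47 and 7.55) at least 2-fold lower in CD8+ DCs. No measured marker of T cells (2 of 5 measured), erythroid cells (1 of 3) or the B16 cells (2 of 6, Pmel at 4.40 and 4.30 and Sox10 at 5.21 and 4.85) differed by 2-fold. Each of these markers, and each Trim gene, was read from sorted cells in bulk, where fewer cells of a type and less RNA per cell cannot be told apart. The part of such cells in the Trim values was not tested.

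TRIM proteins share an N-terminal RING domain, 1 or more B-boxes and a coiled coil, and most are ubiquitin ligases. The domain at their C terminus sets the target and divides the family into classes. Several members are induced by type I interferon and act in antiviral defence, either on the virus itself or by tagging sensors such as RIG-I, while others regulate transcription, the cytoskeleton or protein turnover. In DCs, which sense viruses and present antigen, the family is best known for this tuning of innate signalling.

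Few Trim genes differed by 2-fold between the DC subsets. Of the 58 members, 39 (67.2%) were measured, against 62.7% of all genes, and 38 of these were at or above 3.85 on both arrays. Trim35 and Trim3 passed 2-fold in favour of CD8+ DCs, and Trim59 in favour of CD8- DCs. Over all 11404 measured genes, 3.55% were at least 2-fold higher and 5.97% at least 2-fold lower in CD8+ DCs, so 2 and 1 of 39 are near the background. The measured members divided about evenly in sign, 20 higher and 17 lower in CD8+ DCs and 2 equal, as did all measured genes (5999, 5113 and 292). Identical values on both arrays occurred in 7.30% of all probe sets and are not read as equal expression. The median difference of the measured members was 0.13, against 0.03 over all measured genes. It was -0.0024 once the trend with signal strength was removed by lowess. The median size of the difference regardless of sign was 0.28, against 0.25. At 1.5-fold, 5 members were higher and 4 lower, where the background was 8.49% and 11.5%. No member reached 4-fold by its brightest probe set, the size that 2.96% of all measured genes passed, and none of 39 is near that share. A dimmer probe set of Trim35 did pass it, at 8.47 in CD8+ and 5.88 in CD8- DCs.

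**Figure D1:**
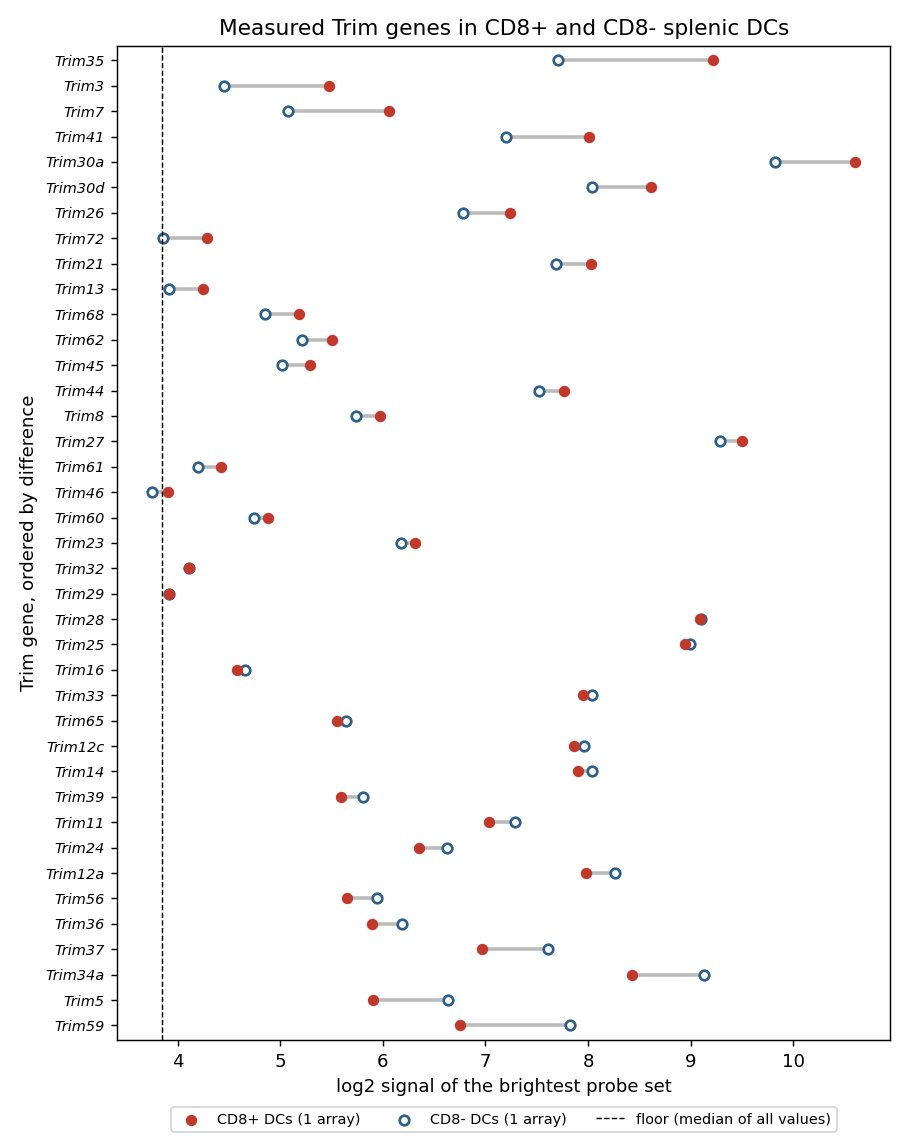
Log2 signal (horizontal axis) of the brightest probe set of each of the 39 measured Trim genes, ordered by difference, with 1 array per population and no error bars. Filled points are CD8+ DCs, open points CD8- DCs and the dashed line the floor of 3.85. Trim35 at the top (9.22 against 7.71) and Trim59 at the bottom (6.75 against 7.82) stand at the ends, and most pairs of points lie close together.

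Agreement between probe sets showed how far readings of the same gene differed within the pair of arrays. This spread does not measure variation between mice, sorts or hybridisations, which 1 array per population leaves unknown. Of the members, 22 had several measured probe sets, and in 21 of these all probe sets had the same sign. Trim23 was the exception, at 0.13 and -0.13. Within a gene, differences of its probe sets scattered with a pooled SD of 0.27 over these 22 genes and of 0.30 over the 5183 such genes of the array. The other 17 measured members had 1 measured probe set each. Of the 39, 24 differed by less than 0.3.

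**Figure D2:**
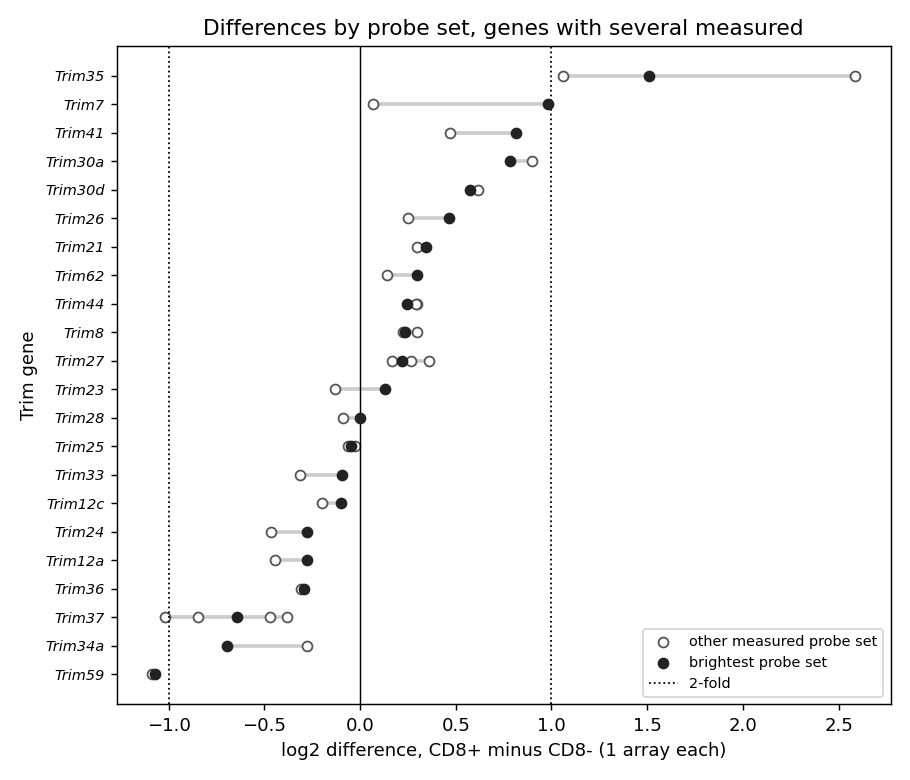
Log2 difference, CD8+ minus CD8- (horizontal axis), of every measured probe set of the 22 Trim genes with several. Filled points are the brightest probe set, open points the others, and dotted lines mark 2-fold. The probe sets of Trim59 (-1.07 and -1.09) nearly coincide, while those of Trim35 run from 1.06 to 2.59 and those of Trim7 from 0.07 to 0.98.

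The largest class joins a RING domain to a C-terminal PRY-SPRY domain, which binds the target protein. It had 28 genes on the array, of which 20 were measured, 12 higher and 8 lower in CD8+ DCs (median difference 0.26, against 0.03 over all measured genes). Of all 11404 measured genes, 5999 were higher and 5113 lower, so the division in sign is near the background. In the class 1 of 20 passed 2-fold (5%), beside 9.52% of all measured genes. Trim35, a ubiquitin ligase first described in blood cell lines, had a log2 signal of 9.22 in CD8+ and 7.71 in CD8- DCs, which is 2.85-fold. Its other probe sets, at differences of 2.59 and 1.06, were past 2-fold as well, so the direction held in all 3 while the size varied. Trim7, whose protein binds the glycogen primer glycogenin, was at 6.06 and 5.08, or 1.97-fold higher in CD8+ DCs. A dimmer probe set of Trim7 differed by only 0.07. Trim41, the next protein-coding gene to Trim7 in the RefSeq order, was at 8.01 and 7.20, with probe sets at 0.81 and 0.47.

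The remaining members of this class outside the interferon-induced group differed by less than 1.5-fold. Trim72, a membrane repair protein of muscle, was at 4.28 and 3.86, close to the floor in CD8- DCs. Trim68 was at 5.18 and 4.85. Trim62, which ubiquitinates the antifungal adaptor CARD9, was at 5.50 and 5.21. These 3 were higher in CD8+ DCs, though by differences near the spread between probe sets. Trim27, a regulator of endosomal protein sorting, was at 9.50 and 9.28, and its 4 measured probe sets lay between 0.17 and 0.36. Trim60 was at 4.88 and 4.74. Slightly lower in CD8+ DCs were Trim11 (7.03 and 7.29) and Trim39 (5.59 and 5.81). Trim65, a ligase for the RNA sensor MDA5, was at 5.55 and 5.64.

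Interferon-induced Trim genes did not differ as a block. The list, drawn from general knowledge, held 14 genes, of which 11 were on the array. All 11 were measured, 4 higher and 7 lower in CD8+ DCs (median difference -0.10). None reached 2-fold, a size that 9.52% of all measured genes reached in either direction, so none of 11 is near the background. Trim30a, which restrains NF-κB signalling after Toll-like receptor engagement, was at 10.60 in CD8+ and 9.82 in CD8- DCs, 1.72-fold higher, with its other probe set at a difference of 0.90. Its neighbour Trim30d was at 8.61 and 8.04, with a second difference of 0.61. Trim26 was at 7.24 and 6.78. Trim21, the cytosolic antibody receptor that sends antibody-coated virus to the proteasome, was at 8.03 and 7.68. These 4 genes were the ones of the list higher in CD8+ DCs, and for Trim26 and Trim21 the differences, 0.46 and 0.34, were close to the spread between probe sets.

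Lower in CD8+ DCs were Trim5, whose primate counterpart blocks retroviral capsids, at 5.90 and 6.64, and Trim34a at 8.43 and 9.13. Trim34a had another probe set at -0.28, and 2 probe sets shared by Trim34a and Trim34b, which are not members, differed by -0.60 and -0.66. Trim56, a ligase linked to STING signalling, was at 5.65 and 5.94, and Trim12a was at 7.98 and 8.26. The other members of the list were nearly level. Trim14, which lacks a RING and acts at the mitochondrial adaptor MAVS, was at 7.91 and 8.04, and Trim12c was at 7.86 and 7.96. Trim25, the ligase that activates RIG-I, was at 8.95 and 9.0 (difference -0.05), with its 3 probe sets between -0.06 and -0.03.

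Along the chromosome, the direction changed within a single cluster. In the RefSeq gene order of the GRCm38.p6 assembly, 10 Trim genes run from Trim6 to Trim30d, of which 7 had a single-gene probe set and 6 were measured. Trim34a, Trim5, Trim12a and Trim12c, in the first part of the run, were lower in CD8+ DCs with differences of -0.70, -0.73, -0.28 and -0.10. The difference of Trim12a was close to the spread between probe sets and that of Trim12c was within it. Trim30a and Trim30d at the far end were higher by 0.78 and 0.57. A probe set shared by Trim30a and Trim30d, not counted among the members, was higher by 0.80, and 1 shared by Trim30b and a predicted gene was at 6.09 and 5.93. The genes of this cluster are close copies of each other, so signal of 1 copy on the probes of another cannot be told apart from its own.

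**Figure D3:**
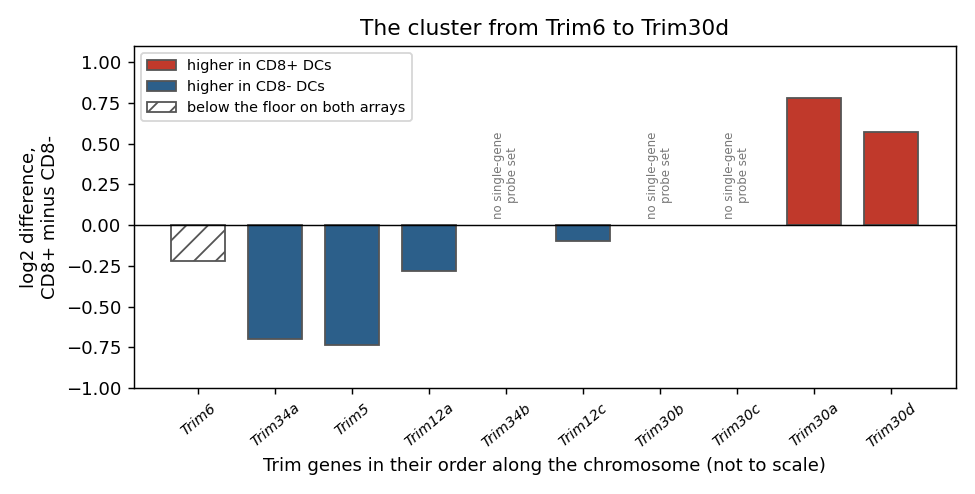
Log2 difference, CD8+ minus CD8- (vertical axis), of the Trim genes from Trim6 to Trim30d in their order along the chromosome, 1 array per population. Trim34a and Trim5 reach -0.70 and -0.73 while Trim30a and Trim30d reach 0.78 and 0.57, Trim6 (hatched) did not reach the floor on either array, and 3 genes had no single-gene probe set.

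Most promoters of this group held the letters that interferon regulatory factors (IRFs) are known to bind. RefSeq windows of 300 bases, from 250 before to 50 after the start of a transcript, were searched on both strands for an IRF element (GAAA, any 2 bases, GAAA) and for an ETS-IRF element, bound by an ETS factor together with an IRF (GGAA, any 2 bases, GAAA). The matches of the elements can overlap. Of the 58 members, 47 had a window. The IRF element was found in 3.44% of all 32851 windows and in 3.99% of all genes with a window. It was found in 8 of the 10 interferon-list members with a window (Trim5, Trim12a, Trim12c, Trim21, Trim26, Trim30a, Trim30d and Trim34a) and in 0 of 19 other measured members. Among the 47 it was also found in Trim2, which is outside the list and below the floor on both arrays. Of the list, Trim56 had no match, Trim14 had no window and Trim25 held the ETS-IRF element alone. Of the 17 interferon-stimulated genes outside the family with a window, 7 held the IRF element. The ETS-IRF element was found in 7 of the 47 members (14.9%), against 3.16% of all genes with a window. It was not confined to the interferon list, since measured Trim44 held it, as did Trim15 and Trim40, both below the floor. Below, the sequences (GRCm38.p6) are read 5′ to 3′ along each gene's strand, with the IRF element in capitals. In all but Trim21 it lies on the opposite strand and reads TTTC, 2 bases, TTTC. The first 4 end at the last base before the start and show the genes that were higher (Trim30a, Trim30d) and lower (Trim5) in CD8+ DCs, with Trim12c, which was nearly level. In Trim26 the elements lie at -160 to -145 from the start. In the last 3 they lie after the start, at bases 11 to 20 in Trim34a and Trim12a and 14 to 29 in Trim21. Another window of Trim30a, for a different start and not shown, held the element after that start, at bases 3 to 12.
Trim30a (chr7:104465194-104465293, minus strand): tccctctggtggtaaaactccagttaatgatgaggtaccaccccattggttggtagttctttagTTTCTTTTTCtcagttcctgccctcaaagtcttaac
Trim30d (chr7:104507850-104507949, minus strand): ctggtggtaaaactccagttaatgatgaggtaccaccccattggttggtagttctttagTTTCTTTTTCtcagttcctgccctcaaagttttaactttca
Trim5 (chr7:104288107-104288206, minus strand): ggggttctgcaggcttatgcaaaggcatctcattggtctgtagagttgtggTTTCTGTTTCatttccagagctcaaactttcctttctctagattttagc
Trim12c (chr7:104353350-104353449, minus strand): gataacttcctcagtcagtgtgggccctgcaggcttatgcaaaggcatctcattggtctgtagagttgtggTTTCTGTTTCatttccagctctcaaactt
Trim26 (chr17:36836946-36837045, plus strand): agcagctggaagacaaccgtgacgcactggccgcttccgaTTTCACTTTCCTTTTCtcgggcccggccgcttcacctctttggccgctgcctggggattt
Trim34a (chr7:104244457-104244486, plus strand): tggtttggagTTTCAGTTTCttttctctgc
Trim12a (chr7:104315466-104315495, minus strand): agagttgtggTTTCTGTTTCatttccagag
Trim21 (chr7:102565447-102565476, minus strand): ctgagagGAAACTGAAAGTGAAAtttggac

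These windows were not independent of each other. The window of Trim30a shown above and that of Trim30d shared a run of 118 bases. That of Trim5 shared 241 bases with Trim12a and 71 with Trim12c. The same Trim30a window and that of Trim5 shared no run longer than 9 bases. In Trim5, Trim12a and Trim12c the IRF element overlaps the ETS-IRF element, whose match on the strand of the gene is TTTCATTTCC. The windows of Trim30a, Trim30d and Trim34a held no match to the latter, which occurred in 2.72% of all windows. In Trim21 and Trim26 a pair of overlapping IRF elements was found. The 8 measured genes with the IRF element spanned differences from -0.73 to 0.78, so its letters were found on both sides of the comparison. A match is a description of the sequence and not a measured binding site.

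Interferon-stimulated genes outside the family were mostly lower in CD8+ DCs. Of 25 measured, 20 were lower and 4 higher, and 9 were at least 2-fold lower and none at least 2-fold higher (background 5.97% and 3.55%). Their median difference was -0.68, against -0.10 for the 11 Trim genes, and the difference between the lists was not tested. Rtp4 (2.90 and 9.05) and Oasl2 (3.78 and 7.72) were below 3.85 in CD8+ DCs. Ifit3 was at 4.33 and 7.98, and Oas1a at 6.12 and 9.08. No Trim gene showed a difference of that size. Of the 4 interferon-stimulated genes that were higher in CD8+ DCs, Mx1 differed most, at 7.88 and 6.96.

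In the pathway around TRIM25, the genes of the RNA sensors RIG-I and MDA5 were lower in CD8+ DCs, while Trim25 itself was level. Of 10 measured genes of the RIG-I and MAVS pathway, 2 were at least 2-fold lower in CD8+ DCs and none higher, beside 5.97% and 3.55% of all measured genes, with a median of -0.18. Ddx58, which encodes RIG-I, was at 4.25 in CD8+ and 7.28 in CD8- DCs, 8.15-fold lower in CD8+ DCs. Ifih1, which encodes MDA5, was at 7.33 and 8.79. The next differences in the list were those of Zc3hav1, the antiviral zinc finger protein that works with TRIM25, at 8.35 and 8.65, and of the regulatory helicase gene Dhx58, at 6.72 and 6.99. Rnf135, a ligase of RIG-I related to TRIM25, was at 5.59 and 5.62, and Mavs at 5.73 and 5.86.

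**Figure D4:**
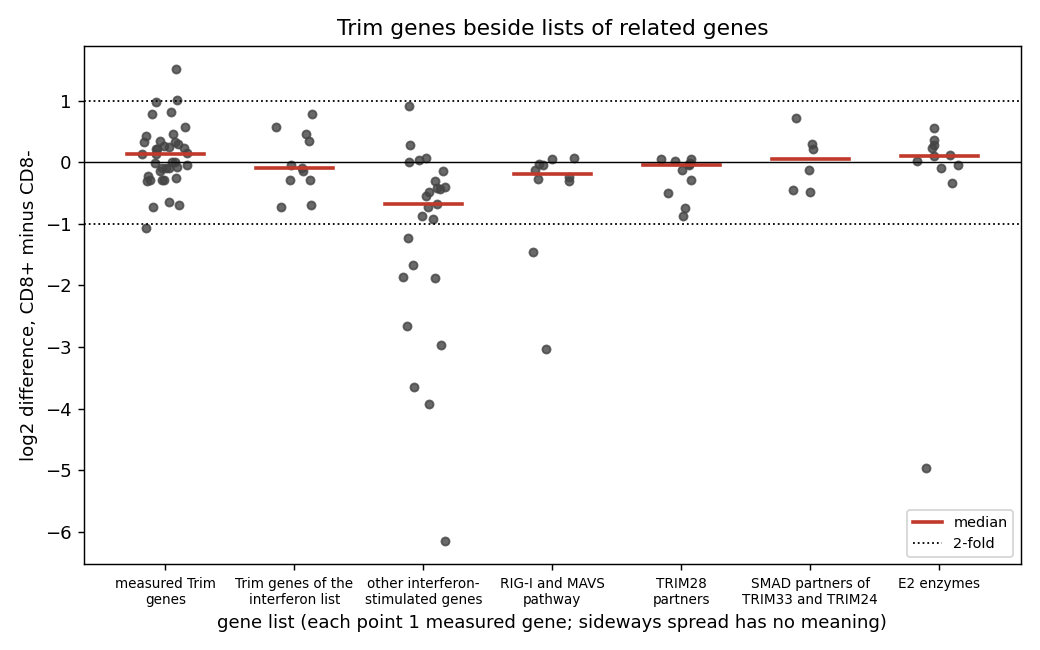
Log2 difference, CD8+ minus CD8- (vertical axis), of each measured gene of the family and of 6 lists, with list medians as bars and 2-fold as dotted lines. The Trim genes of the interferon list stay within 2-fold (median -0.10), the other interferon-stimulated genes reach down to -6.15 (median -0.68), and single genes, Ddx58 and Ube2e2, stand apart in the pathway and E2 lists. Irf7 is in 2 lists.

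The PHD-bromodomain class, which acts on chromatin, was level for Trim28 and slightly lower in CD8+ DCs for Trim33 and Trim24. Trim28, also called KAP1, the co-repressor that silences retroelements through zinc finger proteins, was at 9.09 in CD8+ and 9.10 in CD8- DCs. Trim33, a regulator of SMAD-dependent transcription, was at 7.95 and 8.04, and Trim24, a nuclear receptor cofactor, at 6.35 and 6.63. The measured probe sets of Trim24 differed by -0.28 and -0.46, and those of Trim33 by -0.09 and -0.31. Trim66 was below 3.85 on both arrays. Of 11 measured TRIM28 partner genes none differed by 2-fold (median -0.04), beside 9.52% of all measured genes. In so short a list a count of none is near that share. The largest differences there were those of the heterochromatin protein genes Cbx5 (5.95 and 6.83) and Cbx1 (6.96 and 7.46), of the maintenance DNA methyltransferase gene Dnmt1 (7.20 and 7.95) and of the remodeller gene Chd3 (5.84 and 6.13). All 4 were lower in CD8+ DCs. Of 6 SMAD and related partners of TRIM33 and TRIM24, none differed by 2-fold (median 0.05), again near the 9.52% of all measured genes. Smad3 (6.05 and 5.32) and the SMAD repressor gene Skil (10.06 and 9.75) were higher, and Smad4 (8.55 and 9.04) and the retinoic acid receptor gene Rara (4.18 and 4.63) lower, in CD8+ DCs.

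Among the smaller classes, the NHL-repeat and transmembrane classes held the remaining 2-fold differences. Trim3, an NHL-repeat protein that binds a myosin motor, was at 5.47 in CD8+ and 4.45 in CD8- DCs, or 2.03-fold higher. It had a single probe set and lay just past the threshold, and its difference was 0.99 when each array was centred on its median. Trim32, of the same class, was listed at 4.11 on both arrays, and Trim2 and Trim71 were below 3.85. Trim59, which is anchored in the endoplasmic reticulum membrane, was at 6.75 in CD8+ and 7.82 in CD8- DCs, 2.10-fold lower in CD8+ DCs, and its probe sets differed by -1.07 and -1.09. Trim13, the other transmembrane member and a factor of protein degradation at the endoplasmic reticulum, was at 4.25 and 3.91.

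The rest of the family stayed under 2-fold. Trim37, a MATH-domain ligase that restrains centriole formation, was at 6.97 and 7.61, and all 5 of its probe sets were lower in CD8+ DCs, by differences between -1.02 and -0.38. Trim23, which carries an ARF GTPase domain, was at 6.31 and 6.18, and the filamin-domain member Trim45 at 5.29 and 5.02. Trim8 was at 5.97 and 5.73, Trim44, which has no RING, at 7.77 and 7.52, and Trim61 at 4.42 and 4.20. Of the cytoskeletal COS class, Trim36 was at 5.89 and 6.19 and Trim46 at 3.91 and 3.75. Trim16 was at 4.58 and 4.65, and Trim29 was listed at 3.91 on both arrays.

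In all, 19 members were below the floor on both arrays, with log2 signals from 1.95 to 3.81 and differences of at most 0.45 in size. They included Trim54 and Trim63, muscle RING finger genes, and Trim9, Trim42 and Trim67 of the COS class with a fibronectin domain. The PRY-SPRY members there were Trim6, Trim10, Trim15, Trim17, Trim43a, Trim47, Trim69 and Trim75. The others were Trim2, Trim31, Trim40, Trim66, Trim71 and Trim80, the last of which was placed in no class. Just below the floor lay Trim54 (3.81 on both arrays) and Trim6 (3.51 and 3.72), and just above it Trim46 and Trim29. A value below the floor does not show that a gene is silent.

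TRIM proteins that go by other symbols included a larger difference than any member showed. Mefv, which encodes pyrin, the sensor mutated in familial Mediterranean fever, was at 5.29 in CD8+ and 7.98 in CD8- DCs, 6.47-fold lower in CD8+ DCs. Pml, the organiser of nuclear bodies, was at 6.80 and 6.45. Mid1, Mid2, Cmya5 and Triml1 were below 3.85 on both arrays. Of 11 E2 enzymes, which hand ubiquitin to TRIM ligases, 1 differed by 2-fold (median 0.11), a share near the 9.52% of all measured genes that differed by 2-fold in either direction. Ube2e2 was at 3.15 in CD8+ and 8.11 in CD8- DCs, at least 19.3-fold lower in CD8+ DCs. Ube2w, which works with TRIM5 and TRIM21, was at 8.62 and 8.05, Ube2n at 9.21 and 8.85, and Ube2d1 at 6.91 and 7.24.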

How the data were processed

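The deposited table holds log2 signals of 45101 probe sets on 2 Affymetrix arrays. The authors used RMA, per the submitters' processing notes, which corrects background, quantile-normalises arrays and summarises probes; its version, and which arrays were normalised jointly, are not stated in the labels, and the log2 scale was read from the values. Quantile normalisation hides a shift shared by most transcripts, and background compresses the differences of dim genes. The platform annotation named the probe sets, and symbols were updated by gene identifier against RefSeq (GRCm38.p6), which matched 34754 of 34958 single-gene probe sets and all 111 of the Trim genes. The 932 probe sets of several genes and 9211 unnamed ones were left out. The brightest probe set stood for a gene. The members, lists and naming rule were chosen with earlier results of these data known. Values were named for every measured member and for the 4 most different genes of each related list. Trim members below the floor were summarised. Mx1, Rnf135, Mavs, Irf7 and the markers were named outside this rule, after their values were seen. The lists of Trim classes, interferon-induced members and markers came from general knowledge. With 1 array a population there was no test, and the number of arrays limits the precision. Alternatives were other centring, a lowess trend, filters, probe set choices and thresholds. Python 3.11.15, numpy 2.4.6, pandas 2.3.3 and statsmodels 0.14.6 were used, and the calculation was tested on simulated data.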

Additional observations from a re-analysis of the deposited data

How the results depend on the processing

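Without replicates, the only checks were other ways of processing the same pair of arrays. Of 291 values of single Trim genes under 8 alternatives, 289 moved by no more than 0.30, and no gene at least 1.5-fold apart changed sign. The exceptions were Trim41, at 0.47 without probe sets ending in _x_at or _s_at, and Trim7, at 0.51 with all probe sets averaged. Most of the values could not move, so their number is no measure of robustness. Filters leave a gene's difference as it is, and centring shifts all genes alike. Setting dim values to the floor alters only genes with a value below it. Probe set choices leave genes with a single probe set unchanged. The number of members at least 2-fold higher in CD8+ DCs was 1 in place of 2, without Trim3, when arrays were centred on their medians, when a lowess trend was subtracted and when the filter was set at the 75th percentile. At 1.5-fold the counts were 5 higher and 4 lower in CD8+ DCs, and at 4-fold 0 and 0. The median difference of the measured members, 0.13, was -0.0024 with the lowess trend subtracted, -0.0498 with the filter at the 75th percentile and 0 with probe sets averaged. The cause was not tested. Signal over background limits the members close to the floor, among them Trim46, Trim29, Trim32 and Trim13. No paired analysis was possible because each population has 1 array.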

Other observations

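The protein-coding genes near the 2-fold members, and near Trim7 and Trim41, were read from the RefSeq order and named after their values were seen. Trim59 was lower in CD8+ DCs, and so were the 3 measured genes of the 4 nearest to it, while Arl14 was at 1.80 on both arrays. Of all 11404 measured genes 5113 were lower in CD8+ DCs, and 3 genes are too few to show a trend of the region. Smc4, a condensin subunit gene, was at 9.51 in CD8+ and 10.09 in CD8- DCs. Ift80, a gene of ciliary transport, was at 4.36 and 5.04, and the importin gene Kpna4 at 8.18 and 8.52. Trim35 was higher in CD8+ DCs while its neighbour Ptk2b, a tyrosine kinase gene, was lower there, at 5.25 and 6.65. Stmn4, on its other side, was at 4.53 and 4.20. Trim7 and Trim41 were both higher in CD8+ DCs while Irgm1, the interferon-inducible GTPase gene beside them, was at 6.85 and 7.72. Beside Trim3, Apbb1 was at 3.87 and 3.40, Arfip2 at 6.69 and 6.19 and Timm10b at 9.36 and 9.01.

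A probe set shared by Trim17 and the histone gene H2aw was at 8.08 in CD8+ and 8.32 in CD8- DCs, whereas the brightest probe set of Trim17 alone was at 3.40 and 3.46. The values of the shared probe set cannot be assigned to either gene.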
